A study of Rattus rattus with 8 samples.

Results

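The nuclear-encoded subunits of the respiratory chain and of ATP synthase were compared between tetraploid (4n) and diploid (2n) cells that were sorted by DNA content from neonatal rat heart cultures. The genes were chosen by symbol: the Nduf subunits of complex I, the Sdh genes of complex II, the Uqcr genes and Cyc1 of complex III, Cox5a, Cox5b, Cox6b1, Cox6c, Cox7b and Cox7c of complex IV, and the Atp5 genes of ATP synthase, or complex V. Ndufa4 and Ndufa4l2 were left out, and a row of the table needed at least 10 counts in at least 4 libraries. Of 30957 rows in the table, 72 had such a symbol and 66 met the count minimum: 31 of complex I, 4 of complex II, 8 of complex III, 7 of complex IV and 16 of complex V. All 66 had 10 or more counts in all 8 libraries, so none entered through the 4n libraries alone, and all 66 were tested.

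The respiratory chain of the mitochondrial inner membrane passes electrons from NADH and succinate to oxygen and pumps protons, and ATP synthase uses the proton gradient to make ATP. Complex I oxidises NADH, complex II succinate, complex III hands electrons to cytochrome c, and complex IV, cytochrome c oxidase, reduces oxygen. Complexes I, III, IV and V are built from subunits of both the nuclear and the mitochondrial genome, whereas all subunits of complex II are nuclear-encoded. Heart muscle is among the tissues richest in mitochondria, and its work depends on this pathway.

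All 8 libraries came from cells of SD rat pups 1 to 3 days old, enriched by differential adherence and kept 24 h in medium that held Insulin-Transferrin-Selenium and 0.2 mM AraC, which blocks DNA synthesis. The cells were serum-starved, held at 1% oxygen for 48 h, stained with the Hoechst DNA dye at 2 µg/mL and sorted into 2n and 4n fractions, 4 libraries of each, from independent experiments. No normoxic culture is among the samples, so the values say nothing of the effect of hypoxia. A 4n signal can come from a tetraploid nucleus, a binucleated cell, a cell in G2 or M phase or a pair of 2n cells stuck together, and the labels do not separate these.

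Total counts lay between 14783521 and 21033772 per library. The cell type label, NRCM in the sample titles, was checked against fixed markers. The 14 cardiomyocyte markers in the table took 0.0571% to 0.114% of the counts in 2n and 0.492% to 2.68% in 4n. The 11 fibroblast markers took 6.78% to 7.84% in 2n and 3.12% to 7.09% in 4n. In each library, also of 4n, the fibroblast markers took the larger share, though shares of counts are not shares of cells. All 14 cardiomyocyte markers rose in edgeR (13 with the block, where Myh6 had an adjusted p of 0.0535, and 13 with DESeq2, which gave Mb no adjusted p), with a median log2 fold change of 4.37, 0 of 10 tested fibroblast markers passed with a median of -0.51 (2 were lower at an unadjusted p under 0.05, 1 with DESeq2, and Lum and Pdgfra with the block), and of both lists Col1a2 alone was at 0 in all libraries. The 8 endothelial markers, with a median of 2.90, took at most 0.0393% of the counts; 0 passed in edgeR, with 7 higher at an unadjusted p under 0.05, 3 with DESeq2 and 6 with the block. Of 8 smooth muscle, 6 epicardial, 2 leukocyte and 3 Schwann or neuronal markers tested, 0 passed in edgeR or DESeq2, with 1 smooth muscle marker higher and 1 lower and 2 epicardial markers higher at an unadjusted p under 0.05; with the block 2 epicardial markers passed. The part of the cell type makeup in the results below was not tested, and in bulk RNA fewer cells of a type cannot be told apart from less RNA per cell. Genes of the mitochondrial chromosome took 2.87% to 3.82% of the counts in 2n, 3.71% in 4n replicate 1 and 24.1% to 25.9% in the other 4n libraries.

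Transcripts of the nuclear-encoded subunits were more abundant in 4n cells, with a median log2 fold change of 1.15, a fold of 2.22, against a median of -0.01 over all 12983 genes tested. Of the 66 members, 65 had a positive fold change, 16 rose and 0 fell (edgeR, quasi-likelihood, p adjusted by Benjamini and Hochberg across the whole table, threshold 0.05). Over all genes tested, 48.2% had a positive fold change, 2.67% rose and 0.0077% fell. At an unadjusted p under 0.05, 64 members were higher and 0 lower, against 12.6% and 4.82% of all genes, and DESeq2 called 0 lower, against 0.718%. The 16 were Ndufa2, Ndufa5, Ndufa6, Ndufa7, Ndufa11, Ndufa13, Ndufb9, Ndufc1 and Ndufs7 of complex I, Uqcr10 of complex III, Cox5b of complex IV, and Atp5d, Atp5e, Atp5g1, Atp5g2 and Atp5i of complex V. Their log2 fold changes lay between 0.71 and 1.94. These calls came from the fit without the replicate number, which leaves out the pairing of the libraries. With the replicate number as a block, 24 rose in edgeR, against 4.27% of all genes, and 12 genes were in both sets. Ndufa5, Atp5e, Atp5g1 and Atp5i were called only without the block. Leaving out any one 2n library or 4n replicate 4 left 0 members past the threshold in edgeR, with 60 to 62 of 66 higher at an unadjusted p under 0.05, and 0% of all genes called. Leaving out 4n replicate 1 gave 59 members (6.64% of all genes), 4n replicate 2 gave 10 (2.34%) and 4n replicate 3 gave 15 (2.11%). In the blocked fit, leaving out pair 1 gave 62 (9.65%), pair 3 gave 37 (4.29%) and pair 2 or 4 gave 0 (0%), with 64 and 60 at an unadjusted p under 0.05. DESeq2 called 54 of the 66 higher, against 6.64% of all genes, and limma-voom 0, with 63 at an unadjusted p under 0.05 and 0% of all genes called. Total count scaling gave 10 members (2.46%) and limma on log2 FPKM 11 (2.13%).

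**Figure D1:**
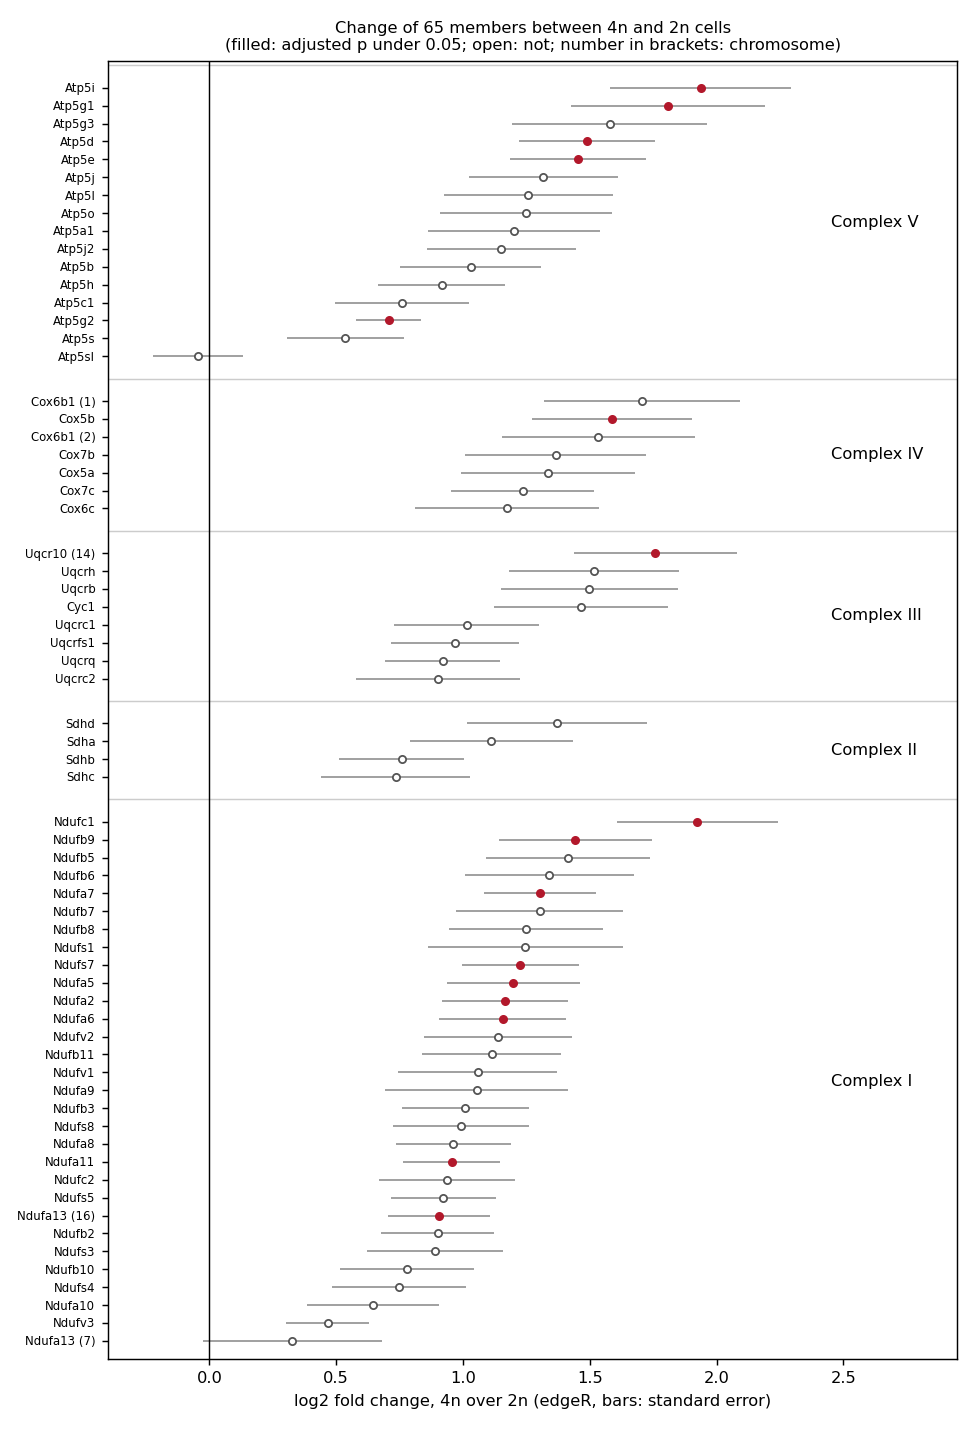
Log2 fold change of 65 of the 66 members between 4n and 2n cells, with its standard error as a bar, grouped by complex. Filled points passed an adjusted p of 0.05 in edgeR without the block, and open points did not. In this plot 64 of 65 points lie to the right of 0 and only Atp5sl, at -0.04, lies to the left.

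The direction was the same in each culture, but the size was not. In pairs of 2n and 4n libraries with the same replicate number, 65 of 66 members were higher in 4n in 4 of 4 pairs, as were 20.2% of all genes tested. For 50 of the 66, every 4n library lay above every 2n library in CPM, the count scaled to library size by TMM, against 7.68% of all genes. The median difference over the 66 was 0.41 on the log2 CPM scale in replicate 1, 0.70 in replicate 2, 1.74 in replicate 3 and 1.25 in replicate 4. The cardiomyocyte markers, beside them, had medians of 2.24, 4.42, 5.53 and 3.60 in the same pairs. Endothelial markers had 1.36, 2.74, 2.91 and 3.23, and epicardial markers 1.05, 0.45, 0.87 and 0.75, also above 0 in each pair. Fibroblast markers were below 0 in each, at -0.30, -0.30, -0.94 and -0.57. A relation between these lists and the members was not tested. With total count scaling in place of TMM the median of all genes moved to -0.25 and that of the members to 0.87.

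By complex, the median log2 fold change was 1.37 for the 7 rows of complex IV, 1.24 for complex III, 1.22 for complex V, 1.05 for complex I and 0.93 for complex II. Complex V here includes Atp5s and Atp5sl, which are not subunits of the enzyme. Without them its median was 1.25, above that of complex III. In edgeR, 9 of 31 members of complex I rose (15 with the block), 1 of 8 of complex III (2 with the block), 1 of 7 of complex IV (3 with the block) and 5 of 16 of complex V (4 with the block). Of complex II 0 of 4 passed, although 4 of 4 were higher at an unadjusted p under 0.05 and 2 with DESeq2. Among all genes tested, 2.67% rose in edgeR, 4.27% with the block and 6.64% with DESeq2. At an unadjusted p under 0.05 in edgeR, 12.6% were higher. In replicates 2, 3 and 4 the complexes took the same order, IV, III, V, I and II, with or without Atp5s and Atp5sl. In replicate 1 they lay between 0.34 and 0.45, with complex V first. These differences between complexes were not tested. The medians ran from 1.62 for complex II to 2.08 for complex IV in replicate 3, and from 0.88 to 1.55 in replicate 4. Between cultures, the median of complex IV ran from 0.40 in replicate 1 to 2.08 in replicate 3.

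**Figure D2:**
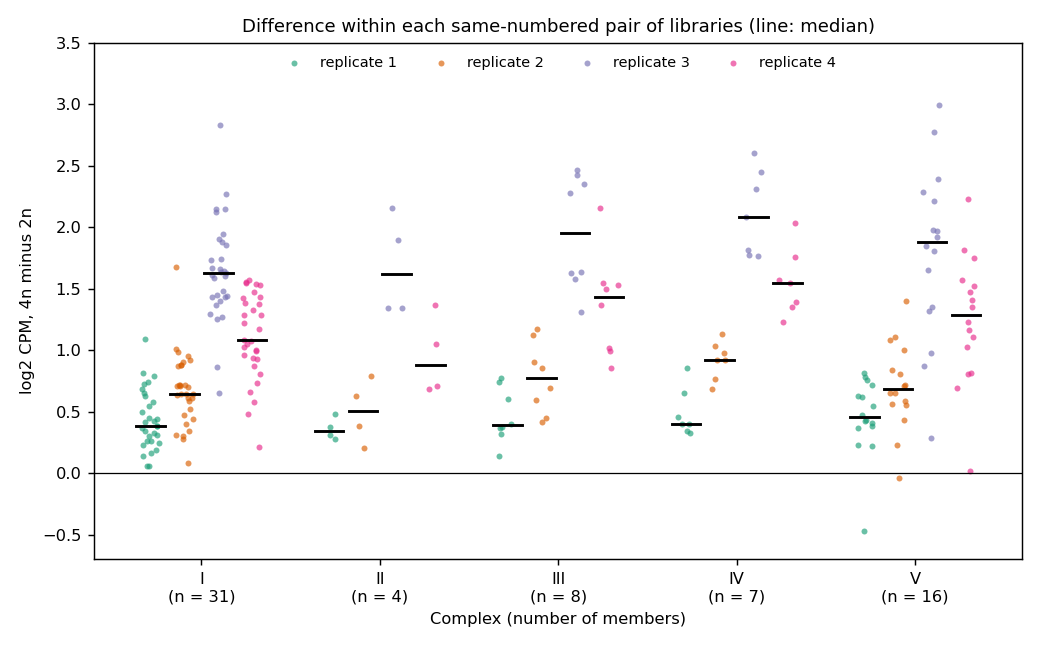
Difference in log2 CPM between the 4n and the 2n library of each replicate number, one point per member, with a line at the median of each complex; colours are the replicate numbers. Replicate 3 is the highest and replicate 1 the lowest pair in each complex, with medians for complex I of 0.38, 0.65, 1.63 and 1.08 in replicates 1 to 4.

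Complex I has 7 nuclear-encoded core subunits, which carry the electron path, and many accessory subunits that stabilise it. The 7 core genes had a median log2 fold change of 1.06 and the 24 accessory rows 1.03. Of the core genes, Ndufs7, which holds the last iron-sulfur cluster before ubiquinone, rose. It stood at 11.9, 15.3, 14.5 and 11.4 CPM in 2n replicates 1 to 4 and at 21.01, 28.0, 45.3 and 30.0 in 4n, so the groups did not overlap (log2 fold change 1.23 ± 0.23 SE, adjusted p = 0.0298 in edgeR). Ndufs3, a core subunit of the matrix arm, and Ndufs8, an iron-sulfur subunit, passed only with the block (adjusted p = 0.0479 and 0.0387 in edgeR, against 0.131 and 0.0963 without it).

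Ndufs1, the largest iron-sulfur subunit of the matrix arm, had 74.9, 94.2, 91.0 and 93.2 CPM in 2n and 88.7, 155, 397 and 198 in 4n. Its 4n replicate 1 lay within the 2n range, and it did not pass (log2 fold change 1.25 ± 0.38 SE, adjusted p = 0.140 in edgeR). Ndufv1, which binds NADH and flavin, had 60.8, 86.7, 78.5 and 66.1 CPM in 2n and 81.1, 132, 261 and 134 in 4n. It overlapped in the same library (1.06 ± 0.31, adjusted p = 0.127 in edgeR). The 4n libraries of both genes spread widely, and replicate 3 was the highest for each.

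Among accessory subunits, Ndufc1, a small protein of the membrane arm, had the largest fold of complex I. It lies on chromosome 2 from 140462900 to 140464607 in Rnor_6.0. It had 3.60, 3.34, 2.92 and 3.17 CPM in 2n and 7.79, 10.9, 21.5 and 9.35 in 4n (log2 fold change 1.92 ± 0.32 SE, adjusted p = 0.0252 in edgeR). The groups did not overlap, and within pairs the log2 CPM differed by 1.09 to 2.83. Ndufa7 had 14.7, 15.1, 16.3 and 13.6 CPM in 2n and 24.7, 30.6, 51.6 and 40.7 in 4n (1.30 ± 0.22, adjusted p = 0.0252 in edgeR). Ndufb9, also of the membrane arm and among the highest complex I transcripts per length, had 34.9, 44.6, 38.8 and 34.3 CPM in 2n and 55.0, 88.2, 172 and 100.3 in 4n (1.44 ± 0.30, adjusted p = 0.0413 in edgeR). Ndufa11, which sits in the membrane arm, had the highest mean level of complex I in 2n, 71.8 ± 12.8 FPKM, the count per transcript length and library size, and 116 ± 20.8 in 4n (n = 4 each, SD). It rose by 0.95 ± 0.19 (SE, adjusted p = 0.0346 in edgeR). Ndufa2, Ndufa5, Ndufa6 and Ndufa13, accessory subunits as well, rose by 0.91 to 1.20, with edgeR adjusted p between 0.0431 and 0.0487. Ndufa5 missed the threshold with the block (adjusted p = 0.0676 in edgeR), and Ndufa8, Ndufb2, Ndufb3, Ndufb7 and Ndufs5, also accessory, passed only with it (adjusted p from 0.0369 to 0.0491 in edgeR).

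The smallest fold of complex I belonged to a second row named Ndufa13 on chromosome 7, from 36826360 to 36826788. Its length in the table equals its span of 429 bases, so it has no intron there, and it had 0.694 to 1.01 CPM in 2n and 0.744 to 1.65 in 4n (log2 fold change 0.33 ± 0.35 SE, adjusted p = 0.672 in edgeR). The row on chromosome 16, from 21275311 to 21282246, held most of the reads, with 23.8 to 26.2 CPM in 2n and 31.3 to 64.4 in 4n. Reads of near-identical copies may have been split by the counting, which leaves both rows uncertain. Ndufv3, a flavoprotein-arm accessory subunit, had 37.7 to 44.7 CPM in 2n and 47.4 to 75.9 in 4n, a log2 fold change of 0.47 that did not pass (adjusted p = 0.187 in edgeR).

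Complex II, succinate dehydrogenase, also serves the tricarboxylic acid cycle. Sdha, its flavoprotein, had 114, 123, 124 and 115 CPM in 2n and 139, 190, 462 and 239 in 4n (log2 fold change 1.11 ± 0.32 SE, adjusted p = 0.120 in edgeR). Sdhb, its iron-sulfur subunit, had 49.3, 59.9, 58.4 and 53.5 CPM in 2n and 61.2, 78.4, 148 and 86.2 in 4n (0.76 ± 0.25, adjusted p = 0.158 in edgeR). For neither did the groups overlap, and for Sdhb 4n replicate 1 lay just above the highest 2n library. Of the membrane anchors, Sdhd had 47.1, 59.2, 56.9 and 53.4 CPM in 2n and 65.6, 103, 254 and 138 in 4n (1.37 ± 0.36, adjusted p = 0.0840 in edgeR). Sdhc had 54.9, 89.5, 79.0 and 70.7 CPM in 2n and 71.2, 103, 200.1 and 115 in 4n, with 4n replicate 1 inside the 2n range (0.73 ± 0.29, adjusted p = 0.246 in edgeR). In 2n the 4 genes lay close together per length, from 48.2 ± 4.41 FPKM for Sdhd to 69.5 ± 13.6 for Sdhc (n = 4 each, SD).

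In complex III, Uqcr10, a small accessory subunit on chromosome 14 from 84935486 to 84937725, rose. It had 14.0, 16.2, 13.7 and 12.0 CPM in 2n and 24.0, 35.5, 76.3 and 53.6 in 4n (log2 fold change 1.76 ± 0.32 SE, adjusted p = 0.0285 in edgeR). The other small subunit Uqcrh, the hinge protein that helps cytochrome c dock, came next. It had 36.5, 29.3, 30.2 and 35.3 CPM in 2n and 47.4, 66.3, 162 and 99.8 in 4n, without overlap, and did not pass (1.52 ± 0.34, adjusted p = 0.0508 in edgeR). Uqcrb, a small matrix-side subunit, passed with the block only (adjusted p = 0.0443, and 0.0600 in edgeR without it).

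The redox subunits of complex III are cytochrome c1, from Cyc1, and the Rieske iron-sulfur protein, from Uqcrfs1. Cyc1 had 64.7, 83.9, 71.8 and 58.6 CPM in 2n and 98.5, 152, 348 and 171 in 4n (log2 fold change 1.46 ± 0.34 SE, adjusted p = 0.0614 in edgeR). Uqcrfs1 had 110.5, 101, 112 and 102 CPM in 2n and 143, 152, 334 and 202 in 4n (0.97 ± 0.25, adjusted p = 0.0845 in edgeR). Both separated the groups in every library and did not pass. The core proteins Uqcrc1 and Uqcrc2, which form the matrix-side scaffold, had values of 1.01 and 0.90 on the log2 scale (adjusted p = 0.107 and 0.201 in edgeR), and Uqcrc2 overlapped, at 136 to 165 CPM in 2n and 149 in 4n replicate 1.

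In complex IV, Cox5b, a zinc-binding subunit of the matrix side, rose. It lies on chromosome 9 from 43259709 to 43262040 and had 46.2, 49.2, 46.9 and 37.2 CPM in 2n and 72.8, 108, 233 and 126 in 4n (log2 fold change 1.59 ± 0.32 SE, adjusted p = 0.0346 in edgeR). Cox5a, its neighbour in the complex, had 34.4, 57.7, 60.0 and 45.1 CPM in 2n and 62.3, 110, 211 and 115 in 4n. Its groups lay close together at 60.0 and 62.3 CPM without overlap, and it passed only with the block (1.33 ± 0.34, adjusted p = 0.0801 in edgeR; 0.0204 in the blocked fit). Cox7c also passed with the block only (adjusted p = 0.0431, and 0.0559 in edgeR without it). Cox6c, an accessory subunit of the membrane part, had 34.1, 49.9, 51.0 and 52.4 CPM in 2n and 45.1, 80.3, 175 and 123 in 4n, with 4n replicate 1 inside the 2n range (1.17 ± 0.36, adjusted p = 0.141 in edgeR). Cox7b had the highest level of the complex per length, 119 ± 15.1 FPKM in 2n and 249.95 ± 116 in 4n (n = 4 each, SD), and did not pass (1.37 ± 0.36 SE, adjusted p = 0.0865 in edgeR).

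Cox6b1, a subunit of the intermembrane side, stands in the table in 2 rows. The row on chromosome 1, from 89075975 to 89084859, had 20.3, 20.6, 18.2 and 16.5 CPM in 2n and 25.8, 42.3, 111 and 67.6 in 4n. The row on chromosome 2, from 211337271 to 211337531, has no intron in its 261 bases and had 20.4, 22.6, 20.4 and 23.3 CPM in 2n and 25.7, 44.6, 112 and 69.4 in 4n. The values of both rows are alike in nearly every library, so the split of reads between these copies is uncertain. The fold changes, 1.71 ± 0.39 and 1.53 ± 0.38 on the log2 scale (SE), were alike, and neither passed (adjusted p = 0.0551 and 0.0720 in edgeR).

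ATP synthase has a catalytic F1 head, a peripheral stalk that holds it, a rotating ring of c subunits in the membrane, and small membrane subunits that help the enzyme form dimers. The 5 genes of the head had a median log2 fold change of 1.20 and 2 of them rose. Atp5b, the catalytic beta subunit and the most abundant member per length, stood at 491 ± 39.7 FPKM in 2n and 825 ± 297 in 4n (n = 4 each, SD). It had 749, 861, 856 and 738 CPM in 2n and 1004, 1265, 2684 and 1590 in 4n, without overlap, and did not pass (1.03 ± 0.28 SE, adjusted p = 0.0946 in edgeR). Atp5a1, the alpha subunit, had 374, 445, 436 and 364 CPM in 2n and 496, 698, 1708 and 815 in 4n (1.20 ± 0.34, adjusted p = 0.109 in edgeR). The small subunits of the central stalk passed. Atp5d, the delta subunit, had 58.6, 62.0, 56.996 and 52.8 CPM in 2n and 99.3, 131, 264 and 152 in 4n (1.49 ± 0.27, adjusted p = 0.0275 in edgeR). Atp5e, the epsilon subunit, had 35.4, 35.3, 26.1 and 24.7 CPM in 2n and 54.4, 63.4, 128 and 87.0 in 4n (1.45 ± 0.27, adjusted p = 0.0293 in edgeR; 0.0637 in the blocked fit). Atp5c1, the gamma subunit, had a log2 fold change of 0.76 (adjusted p = 0.186 in edgeR). Its FPKM rests on a length of 9764 bases, the longest of the members, and cannot be read as a level against the other subunits.

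Of the peripheral stalk, Atp5h, Atp5j and Atp5o had log2 fold changes of 0.92, 1.32 and 1.25 and passed in 0 cases without the block (3 of 3 at an unadjusted p under 0.05 and 3 with DESeq2), while Atp5h and Atp5o passed with it (adjusted p = 0.0369 and 0.0431 in edgeR). Of the membrane subunits, Atp5i, subunit e, had the largest fold of all 66 members. It had 8.60, 6.60, 5.14 and 4.50 CPM in 2n and 14.2, 17.6, 41.6 and 21.5 in 4n (1.94 ± 0.36 SE, adjusted p = 0.0287 in edgeR; 0.0565 in the blocked fit). It lies on chromosome 14 from 2325308 to 2326436. The genes of subunits f and g, Atp5j2 and Atp5l, had 1.15 and 1.26 and did not pass (adjusted p = 0.0791 and 0.0921 in edgeR).

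The c ring is encoded by 3 genes, Atp5g1, Atp5g2 and Atp5g3, whose proteins differ in their mitochondrial targeting sequence and give the same mature subunit. Atp5g1, on chromosome 10 from 83895947 to 83898527, had 23.0, 26.8, 23.4 and 20.4 CPM in 2n and 40.5, 57.9, 161 and 68.8 in 4n (log2 fold change 1.81 ± 0.38 SE, adjusted p = 0.0431 in edgeR; 0.0602 in the blocked fit). Atp5g3, on chromosome 3 from 60811210 to 60813869, had 49.8, 73.7, 69.4 and 69.9 CPM in 2n and 85.7, 148, 365 and 186 in 4n, and did not pass (1.58 ± 0.38, adjusted p = 0.0689 in edgeR). Atp5g2, on chromosome 7 from 144264199 to 144272578, had 83.7, 82.1, 81.5 and 78.6 CPM in 2n and 113, 121, 160.3 and 137 in 4n. It was the steadiest of the 3 between cultures, with the smallest fold and a small error, and it passed (0.71 ± 0.13, adjusted p = 0.0269 in edgeR). The groups did not overlap for any of the 3.

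The share of each gene in the c-subunit transcripts, read per length, was set out by library. Atp5g2 made up 44.03%, 36.2%, 38.0% and 37.9% of the summed FPKM of the 3 genes in 2n replicates 1 to 4 and 38.0%, 28.9%, 17.3% and 27.2% in 4n. It was lower in 4n in each pair, and in 4n replicate 1 it lay within the 2n range. Atp5g1 made up 17.0% to 20.9% in 2n and 23.5% to 30.0% in 4n, without overlap. Atp5g3 made up 35.0% to 45.1% in 2n and 38.5% to 52.7% in 4n, with overlap, and was the largest part in all libraries but 2n replicate 1. These shares are given as values without a test.

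**Figure D3:**
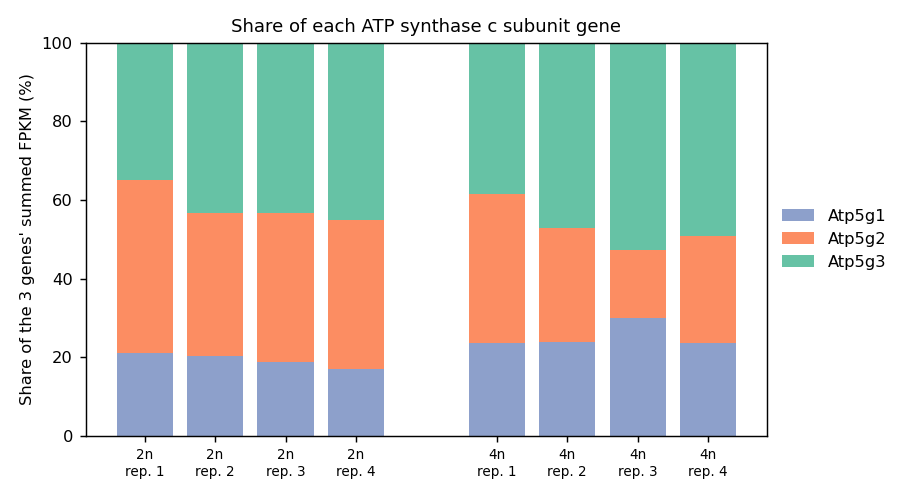
Share of Atp5g1, Atp5g2 and Atp5g3 in the summed FPKM of the 3 c-subunit genes in each library, in percent, with "rep." for replicate. The Atp5g2 band is narrowest in 4n replicate 3, at 17.3%, and widest in 2n replicate 1, at 44.03%.

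Both Atp5s and Atp5sl entered by their symbol although neither is a subunit of the assembled enzyme, and they were the least changed of complex V. Atp5s, a coupling factor, had 2.49 to 4.15 CPM in 2n and 4.39 to 6.06 in 4n (log2 fold change 0.54, adjusted p = 0.272 in edgeR). Atp5sl had 18.1 to 26.5 CPM in 2n and 17.6 to 27.2 in 4n (-0.04 ± 0.18 SE, adjusted p = 0.923 in edgeR). Without them the median of complex V was 1.25 in place of 1.22. Atpif1, the ATP synthase inhibitory factor, which the symbols used here do not cover, had 43.6 ± 8.29 CPM in 2n and 81.4 ± 22.5 in 4n (n = 4 each, SD; 0.90 ± 0.21 SE, adjusted p = 0.0600 in edgeR).

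The remaining 6 rows with a matching symbol did not reach the count minimum. Ndufa1 and Ndufb4l1 were listed at 0 in all 8 libraries, and both rows named Atp5f1, the stalk subunit b, had at most 16 counts in any library. The subunits from Ndufa1 and Atp5f1 are needed in every respiring cell, so their low values are not read as absence. The other rows were a second Uqcr10 on chromosome 15, with at most 1 count, and Atp5hl1, a copy of Atp5h, with 5 to 9 counts in 2n and 6 to 31 in 4n.

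Summed over the members and read per length, complex V had the highest sum and complex II the lowest in each library. The sums run over 31, 4, 8, 7 and 16 rows for complexes I to V, so their order also reflects the number of rows. Subunits outside the chosen symbols are not in them, such as Cox4i1 of complex IV, with a mean of 224 FPKM in 2n. In 2n replicates 1 to 4 the members of complex V summed to 1601, 1905, 1762 and 1573 FPKM, and in 4n to 2248, 2435, 4956 and 3156. For complex I the sums were 1118, 1250.4, 1181 and 1034 FPKM in 2n and 1516, 1600.4, 2972 and 1931 in 4n. For complex IV they were 552, 696, 652 and 603 in 2n and 786, 1030.3, 2136 and 1426 in 4n. The 2n libraries stayed close together, and 4n replicate 3 stood highest for all 5 complexes. The ratio of the 4n to the 2n mean was 2.15 for complex IV, 1.89 for complex III, 1.87 for complex V, 1.75 for complex I and 1.62 for complex II. The FPKM were divided by total counts that include the mitochondrial genes, which lowers them in 4n replicates 2, 3 and 4. With TMM-scaled counts per length the ratios were 2.64, 2.31, 2.28, 2.13 and 1.98 in the same order.

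**Figure D4:**
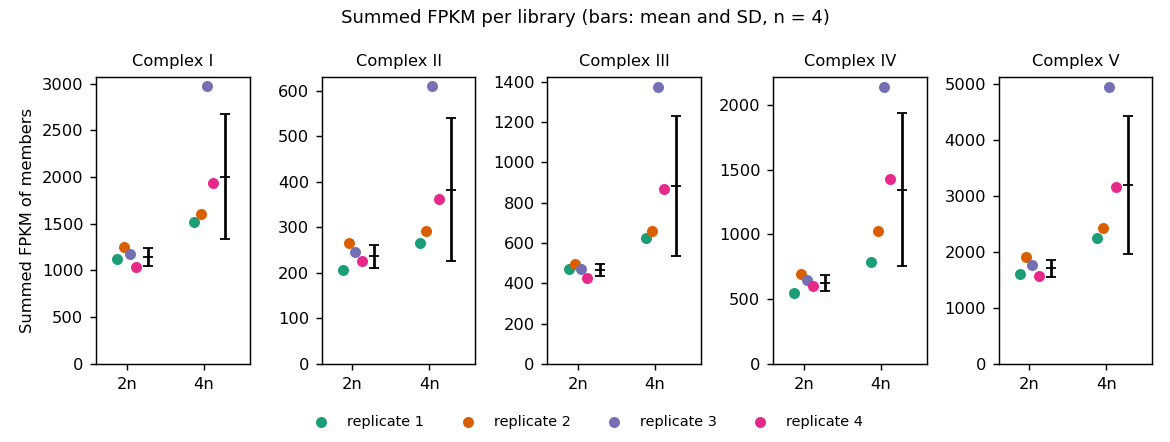
Summed FPKM of the members of each complex in each library, with the mean and SD of the 4 libraries of a group beside them; each panel has its own axis from 0. The 4n libraries lie above the 2n libraries in all 5 panels, for complex II by a narrow margin (266 in 4n replicate 1 against 265 in 2n replicate 2).

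The mitochondrially encoded subunits, which join the nuclear-encoded ones in complexes I, III, IV and V, had other sizes of difference, which were not tested against each other. Of 13, 11 rose in edgeR, against 2.67% of all genes, with a median log2 fold change of 2.91. With the block 0 passed, against 4.27% of all genes. At an unadjusted p under 0.05, 13 were higher in both fits, against 12.6% of all genes without the block. DESeq2, without the block, called 13, against 6.64%. In the pair of replicate 1 the mitochondrial median of 0.37 was close to the 0.41 of the nuclear-encoded members. In replicates 2, 3 and 4 it was 3.41, 3.27 and 2.87, against 0.70, 1.74 and 1.25, that is 2.70, 1.53 and 1.61 higher. The orders of the pairs differed too: the nuclear-encoded members were highest in replicate 3 and the mitochondrial genes in replicate 2. Mt-nd6, the only subunit gene on the light strand, had 11.8 ± 4.54 CPM in 2n and 59.5 ± 30.4 in 4n, and Mt-co1, of complex IV, 11140 ± 1386 and 85095 ± 48273 (n = 4 each, SD). In 4n replicate 1 both lay within the 2n range, at 14.2 and 12870 CPM. For 3 of the 13 genes every 4n library lay above every 2n library, against 7.68% of all genes. Nuclear copies of mitochondrial sequence can share reads with these genes.

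**Figure D5:**
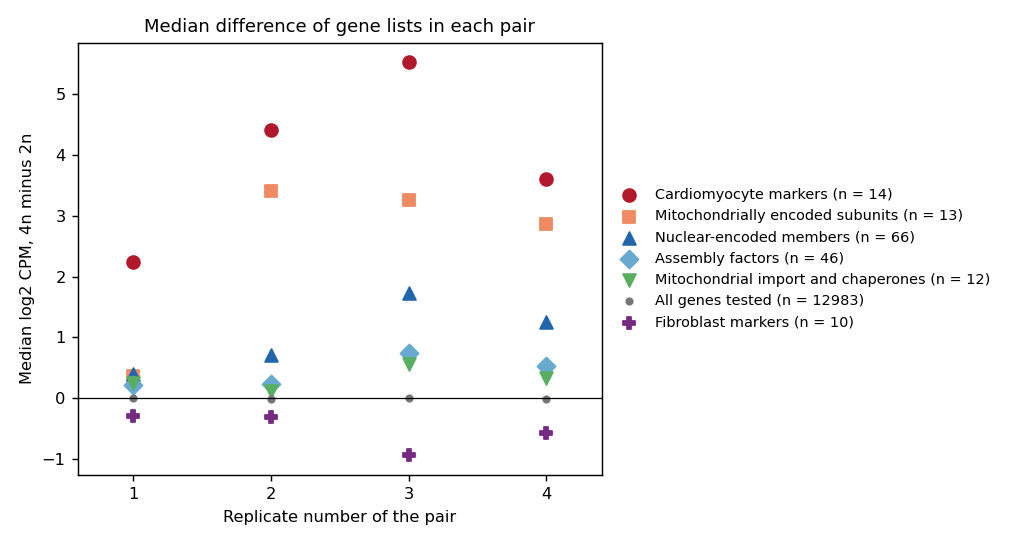
Median difference in log2 CPM between the 4n and the 2n library of each replicate number for 7 gene lists, with the number of genes in each. The nuclear-encoded members lie between the cardiomyocyte markers and the median of all genes in each pair, and the mitochondrially encoded subunits lie near them in replicate 1 alone.

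Complex IV subunits outside the chosen symbols include tissue-specific forms. Of 11 tested, 5 passed as higher in 4n in edgeR, against 2.67% of all genes, with Cox8b, described below, among the 5. Cox6a2, the form of heart and skeletal muscle, had 6.45 ± 2.63 CPM in 2n and 155 ± 108 in 4n (n = 4 each, SD; log2 fold change 4.59 ± 0.58 SE, adjusted p = 0.0252 in edgeR). Cox8b, also a muscle form, had 1 to 2 counts per 2n library (0.0891 ± 0.0284 CPM) and 15 to 83 per 4n library (3.01 ± 2.16 CPM; n = 4 each, SD). It met the count filter only through the 4n libraries, so its call is no support for a difference. The forms of most tissues, Cox8a, Cox6a1 and Cox4i1, rose by 1.61, 1.36 and 1.00 (adjusted p = 0.0252, 0.0298 and 0.0396 in edgeR), within the range of the 66 members. Ndufa4, now counted to complex IV, had 1.46 and did not pass (adjusted p = 0.0801 in edgeR), and its hypoxia-inducible relative Ndufa4l2 had -0.14 (adjusted p = 0.927 in edgeR).

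The assembly factors build the complexes and are not part of them. Of 46 tested, 42 had positive folds, against 48.2% of all genes, with a median of 0.44 against 1.15 for the subunits. At an unadjusted p under 0.05 in edgeR 15 were higher, against 12.6% of all genes, and DESeq2 called 6, against 6.64%. Past the threshold in edgeR 2 rose, against 2.67% of all genes. The 2 were Cox17, a copper chaperone of complex IV, from 8.37 ± 1.29 to 21.8 ± 9.40 CPM (1.38 ± 0.29 SE, adjusted p = 0.0413 in edgeR), and Fmc1, an ATP synthase assembly factor, from 2.09 ± 0.720 to 7.82 ± 3.35 CPM (n = 4 each, SD; 1.91 ± 0.37 SE, adjusted p = 0.0317 in edgeR). The medians by complex were 0.42 for 14 factors of complex I, 0.46 for 4 of complex II, 0.49 for 6 of complex III, 0.47 for 18 of complex IV and 0.75 for 4 of ATP synthase. None of the factors of complexes I, II and III passed in edgeR or DESeq2, with 3, 1 and 2 at an unadjusted p under 0.05. Ndufaf1, which came closest among those of complex I, had 0.68 ± 0.21 (SE, adjusted p = 0.138 in edgeR), and Uqcc2 of complex III 0.67 ± 0.22 (adjusted p = 0.166 in edgeR). The difference between subunits and assembly factors was not tested.

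A list of electron carriers and adenine nucleotide exchange also held the phosphate carrier Slc25a3 and the Vdac channels of the outer membrane. Its 10 tested genes had a median of 0.75 and 0 passed in edgeR (7 at an unadjusted p under 0.05, 4 with DESeq2 and 2 with the block). Slc25a4, the ADP/ATP carrier of heart and muscle, had 399.8 ± 13.5 CPM in 2n and 752 ± 318 in 4n (n = 4 each, SD; 0.91 ± 0.26 SE, adjusted p = 0.107 in edgeR). Of 12 genes of mitochondrial import, chaperones and membrane shape, 0 passed in edgeR (4 at an unadjusted p under 0.05; 1 with DESeq2), with a median of 0.35. Tomm20, an import receptor of the outer membrane, had 90.3 ± 10.4 and 123 ± 15.6 CPM (n = 4 each, SD; 0.45 ± 0.13 SE, adjusted p = 0.129 in edgeR).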

How the data were processed

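RNA of sorted cells was sequenced. The submitters' processing notes list HISAT2 2.0.4 and the rat build Rnor 6.0; the counting tool and its strand setting were not given in the sources used here. Per the file headers, each library has a count column and an FPKM column for 30957 genes. The deposited count values are raw whole numbers. Each deposited FPKM value equals the count divided by a fixed length of the gene and by the library's total, mitochondrial genes included. Coordinates are those of the table. The labels name the organism Rattus rattus and the strain SD, and Rnor 6.0 is a build of Rattus norvegicus. Groups and replicate numbers came from the sample titles.

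The test was edgeR 4.0.16 (R 4.3.3): filterByExpr (12983 genes), TMM, a robust quasi-likelihood fit with the group as its factor, two-sided, with Benjamini-Hochberg adjustment across these genes and a threshold of 0.05. The SE is the fold change divided by the square root of F. Log2 CPM used a prior count of 2. Same-numbered libraries deviated together (correlations of 0.43, 0.58, 0.27 and 0.65) and share the first part of their description. They were treated as pairs only in the differences within pairs and in the blocked fit. The main edgeR fit did not use the replicate number, so its calls leave this pairing out. Calls of named genes given for edgeR without mention of the block come from the main fit. The blocked fit is printed where it changes a call of a named gene or moves a count of calls in a gene list. Alternatives were DESeq2 1.42.0, limma 3.58.1 (voom, and log2 FPKM with 0.1 added), other scalings and filters, and leaving out libraries. Before scaling, 1 CPM was at least 14.8 counts. The edgeR fit was also run on simulated data. These had the same spread in both groups and the common dispersion of the blocked fit, 0.031, a measure of the spread between libraries. In the fit without the block it was 0.079, so that run does not show how the main fit behaves on these data.

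Named genes were every member past the threshold, in each complex the 2 with the smallest p, the largest and smallest fold and the 2 highest FPKM, fixed catalytic and c-ring genes, and of each further list those past the threshold or else the 2 with the smallest p, of which a part is printed; Ndufa8, Ndufb2, Ndufb3, Ndufb7, Ndufs3, Ndufs5, Ndufs8, Ndufv3, Uqcrb, the second Cox6b1 row, Cox7c, Atp5c1, Atp5h, Atp5j, Atp5j2, Atp5l, Atp5o, Atp5s, Atpif1, Ndufa4, Ndufa4l2, Lum and Pdgfra were added after their values were seen. The values of 1 member are not reported here. The members and lists were chosen with earlier results of these data known. Genes of the further lists that the table lacks by symbol were not analysed here.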

Additional observations from a re-analysis of the deposited data

Results flagged for a closer look

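In 154 groups of 4 values (each member, complex sum and marker share in each sort), 9 had 1 library standing apart from the other 3 beyond Dixon's 95% limit, and chance flags about 1 in 20. In 2n, replicate 1 stood low for Ndufa10 (44.997 CPM, the others from 50.5), Ndufb7 (14.6, from 18.5), Ndufs1 (74.9, from 91.0) and Cox6c (34.1, from 49.9), and replicate 4 for Ndufb8 (31.2, from 43.3). In 4n, replicate 3 stood high for Ndufb2 (37.2 CPM, the others up to 21.5) and Ndufs5 (23.5, up to 15.0). The 13 mitochondrially encoded subunits took 3.59% of the counts in 4n replicate 1, against 23.2% to 24.4% in the other 4n libraries. Endothelial markers took 0.0393% in 4n replicate 4, against 0.00763% to 0.00878% in the others.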

How the results depend on the processing

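The median log2 fold change over the 66 members stayed between 0.79 and 1.33 and that of each complex above 0 under each alternative test, scaling, filter and left-out library; a minimum of 10 counts in all 8 libraries removes no member. The number of members called depended on the test and on single libraries. It was 16 as reported, 24 with the replicate block, 10 with total count scaling, 54 with DESeq2 and 0 with limma-voom. Leaving out single libraries gave 0 to 59, and leaving out pairs in the blocked fit 0 to 62 (37 without replicate 3). For complex I the counts were 9 as reported, 15 with the replicate block, 4 with total count scaling, 25 with DESeq2, 0 with limma-voom and 5 on log2 FPKM, with 0 to 27 without single libraries and 0 to 30 without pairs in the blocked fit (17 without replicate 3). For complex II they were 0 as reported, 2 with DESeq2 and 0 to 3 on leaving out libraries or pairs. For complex III they were 1 as reported, 2 with the replicate block, 7 with DESeq2, 0 with limma-voom and 0 to 8 on leaving out libraries or pairs, and for complex IV 1, 3, 7, 0 and 0 to 7 in that order. For complex V they were 5 as reported, 13 with DESeq2, 0 with limma-voom and 0 to 14 on leaving out libraries or pairs. Of the genes of the other pathway lists, 18 were called as reported, 9 with the replicate block, 7 without the mitochondrial chromosome (which removes the 13 mitochondrial genes), 9 without a filter, 31 with DESeq2, 0 with limma-voom and 6 on log2 FPKM, with 0 to 33 without single libraries and 0 to 41 without pairs in the blocked fit (11 without replicate 3). The 18 include Cox8b, which met the count filter only through the 4n libraries. Beside the members named above, the block changed no other call of a member. Fewer samples were fitted where libraries were left out, and the cause of the changes in these counts was not tested. The fold change of Atp5sl, -0.04 as reported, turned positive without 2n replicate 1 (0.061), without 4n replicate 2 (0.030) and in the blocked fit without replicate 1 (0.070), over a range of -0.19 to 0.061 without single libraries and -0.16 to 0.070 without pairs.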

Other observations

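Members with shorter transcripts in the table tended to have larger folds: over the 66 members, which share the same 8 libraries, Spearman's rho between length and log2 fold change was -0.42, and over all 12983 genes tested it was -0.23. The median length was 771 bases for the members and 2486 over all genes tested. The order of the members by size of difference was alike in the pairs of replicates 2, 3 and 4 (Spearman's rho from 0.82 to 0.83 across members) and less so between replicate 1 and each of these (0.51 to 0.56). The members lie on many chromosomes, with 11 of 66 on chromosome 7, 8 on chromosome 1 and 2 on the X.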
